A study of Homo sapiens with 6 samples.

Results

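Cholesterol genes were followed across 22RV1 cells, an established human prostate cancer line, through 30 genes of sterol synthesis, its control, intracellular sterol handling and sterol efflux. They are 30 of the 17811 genes in the table and were taken by symbol, from a list drawn up with earlier results of these data known, so their counts are a description and not an independent test. Of these, 18 encode enzymes of the synthesis pathway (7 from acetyl-CoA to farnesyl diphosphate, 11 from squalene to cholesterol), 5 encode the SREBP transcription factors and their regulators, 4 encode proteins of intracellular sterol transport and storage, and 3 are efflux or LXR-induced genes. The last 3 are called efflux genes below, although MYLIP among them is LXR-induced and not an exporter. None of the 30 is a lipoprotein receptor. All 30 passed the filter on low values, which asked for a normalized count of at least 10 in at least 2 libraries.

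The 3 groups had 2 poly(A) RNA libraries each, from cells stably expressing the hairpin shLuc (against luciferase, a gene that human cells lack), shIMPA1 or shIMPDH2. IMPA1 encodes an inositol monophosphatase and IMPDH2 an enzyme of guanine nucleotide synthesis. All groups grew in the same RPMI-1640 medium with fetal bovine serum, a source of lipoprotein cholesterol, and every group carries a hairpin. The labels give 1 stable line per group, name neither the promoter that drives the hairpin nor its target site, and do not state if its libraries are separate cultures. The p-values therefore cover the spread between these libraries alone, which may be technical.

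Cholesterol is built from acetyl-CoA through mevalonate, squalene and lanosterol. When membranes of the endoplasmic reticulum are poor in sterol, SCAP escorts SREBP2 to the Golgi, where proteases release the factor that switches on the synthesis genes; when sterol is plentiful, INSIG proteins hold SCAP back. Sterol surplus also yields oxysterols that activate the liver X receptors (LXR), which induce the exporters ABCA1 and ABCG1 and MYLIP, a ubiquitin ligase that removes lipoprotein receptors. Prostate cancer cells use cholesterol for membranes and as a substrate for steroids.

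Recovered reads ranged from 20828900 to 27773294 per library, and the 30 genes took 0.490% and 0.515% of them in the control, 0.313% and 0.247% with shIMPA1, and 0.424% and 0.427% with shIMPDH2. IMPA1 stood at 1621 and 1331 normalized counts in shLuc and at 957 and 1101 in shIMPA1, a log2 change of -0.52 ± 0.13 (SE; limma adjusted p = 0.0145). IMPDH2 stood at 4269.9 and 5032 in shLuc and at 2932 and 3166 in shIMPDH2, a log2 change of -0.61 ± 0.13 (limma adjusted p = 0.00999). These calls held in 5 and 3 of the 6 fits that left out 1 library. Prostate luminal markers were measured in every library, among them KRT8 at 40649.6 to 71625 and KLK2 at 732 to 1668 normalized counts. The shIMPA1 libraries differed most from each other, with 934 genes over 2-fold apart, against 266 in shLuc and 398 in shIMPDH2.

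Promoter sequences are shown first, because SREBP2 acts at promoters together with NF-Y, which binds CCAAT boxes, and Sp1. RefSeq windows (GRCh38.p14) from 250 bases before to 50 bases after the gene start were found for 26 of the 30 genes, not for FDFT1, SQLE, ACAT2 and ABCG1. Below are the 250 bases before the start, 5′ to 3′ on the gene's own strand, with CCAAT or its reverse complement ATTGG and the sterol response element core TCACNCCAC in capitals. HMGCS1, MSMO1 and NSDHL are enzymes that fell in shIMPA1, and PMVK is the mevalonate arm enzyme that was not called. These 4 were chosen after their values were seen.
HMGCS1: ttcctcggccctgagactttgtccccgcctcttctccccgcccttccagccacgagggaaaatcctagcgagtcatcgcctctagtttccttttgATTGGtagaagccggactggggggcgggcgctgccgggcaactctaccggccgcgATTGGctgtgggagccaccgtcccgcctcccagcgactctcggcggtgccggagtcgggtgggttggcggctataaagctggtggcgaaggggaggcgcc
MSMO1: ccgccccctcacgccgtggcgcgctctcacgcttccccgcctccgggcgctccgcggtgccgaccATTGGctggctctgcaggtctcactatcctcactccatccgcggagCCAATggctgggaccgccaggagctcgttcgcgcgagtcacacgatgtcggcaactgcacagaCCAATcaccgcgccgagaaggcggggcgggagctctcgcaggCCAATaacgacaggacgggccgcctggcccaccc
NSDHL: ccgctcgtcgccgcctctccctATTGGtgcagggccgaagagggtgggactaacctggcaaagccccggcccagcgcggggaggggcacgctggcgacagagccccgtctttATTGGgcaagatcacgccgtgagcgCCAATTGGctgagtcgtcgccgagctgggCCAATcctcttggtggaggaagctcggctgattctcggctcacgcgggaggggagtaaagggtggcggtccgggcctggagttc
PMVK: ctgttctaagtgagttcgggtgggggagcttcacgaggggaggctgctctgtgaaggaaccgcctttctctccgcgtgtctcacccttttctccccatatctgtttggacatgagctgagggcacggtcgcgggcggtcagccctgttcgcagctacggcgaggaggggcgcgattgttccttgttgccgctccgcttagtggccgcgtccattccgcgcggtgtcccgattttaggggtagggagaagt
They lie at chr5:43313413-43313662 (minus strand), chr4:165327419-165327668 (plus), chrX:152830813-152831062 (plus) and chr1:154936720-154936969 (minus). HMGCS1 holds 2 CCAAT boxes, MSMO1 4 and NSDHL 5, of which a pair overlaps in the palindrome. PMVK holds 0.

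The next windows belong to SREBF2, the gene of SREBP2 and the only one of the 26 with TCACNCCAC, and to the LXR-induced genes ABCA1 and MYLIP.
SREBF2: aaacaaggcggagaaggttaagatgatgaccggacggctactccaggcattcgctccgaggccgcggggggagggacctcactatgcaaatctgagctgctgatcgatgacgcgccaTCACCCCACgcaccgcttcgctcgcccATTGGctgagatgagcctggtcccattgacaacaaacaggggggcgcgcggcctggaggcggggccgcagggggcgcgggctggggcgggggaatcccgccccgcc
ABCA1: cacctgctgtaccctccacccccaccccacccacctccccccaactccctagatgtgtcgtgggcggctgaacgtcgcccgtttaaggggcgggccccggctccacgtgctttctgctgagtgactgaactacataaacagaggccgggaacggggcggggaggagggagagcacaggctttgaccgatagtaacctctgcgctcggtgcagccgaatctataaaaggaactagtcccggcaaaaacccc
MYLIP: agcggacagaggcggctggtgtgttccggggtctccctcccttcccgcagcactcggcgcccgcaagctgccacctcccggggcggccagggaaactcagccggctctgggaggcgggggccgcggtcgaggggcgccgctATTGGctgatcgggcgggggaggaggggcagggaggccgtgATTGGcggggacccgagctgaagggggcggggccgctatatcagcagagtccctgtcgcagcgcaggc
They lie at chr22:41832855-41833104 (plus strand), chr9:104928156-104928405 (minus) and chr6:16128836-16129085 (plus). The SREBF2 match begins 133 bases before the start, and a CCAAT box in reverse orientation follows it. ABCA1 holds 0 CCAAT boxes and MYLIP 2.

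Over the 26 windows, searched on both strands, 18 (69.2%) held CCAAT, against 35.7% of all 27305 RefSeq windows of this length and 36.5% of the 12295 that belong to genes tested here. GGGCGG, the Sp1 motif, was in 25 (96.2%), against 44.6% and 69.1%. The E-box CACGTG was in 5 (19.2%), those of ABCA1, INSIG1, LSS, SC5D and SCAP, against 7.43% and 9.92%. TCACNCCAC was in 1 (3.85%), against 1.15% and 1.11%. Of the 18 genes with a CCAAT match, 15 fell in shIMPA1, 1 rose (TM7SF2) and 2 were not called (SREBF2 and MYLIP), with a median log2 change of -0.89. Among the 8 without one, 4 fell (CYP51A1, IDI1, INSIG2 and SREBF1) and 4 were not called, with a median of -0.51. The 2 sets also differ in role. Most genes with a match are synthesis enzymes. Of those without one, CYP51A1, IDI1 and PMVK are synthesis enzymes, and ABCA1, INSIG2, NPC1, SCAP and SREBF1 are not. The split therefore cannot tell the motif apart from the role. These are matches of letters, not binding sites, and the 2 sets of genes were not tested against each other. Only the exact spelling TCACNCCAC was searched, so a window without it is not shown to lack a sterol response element.

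**Figure D1:**
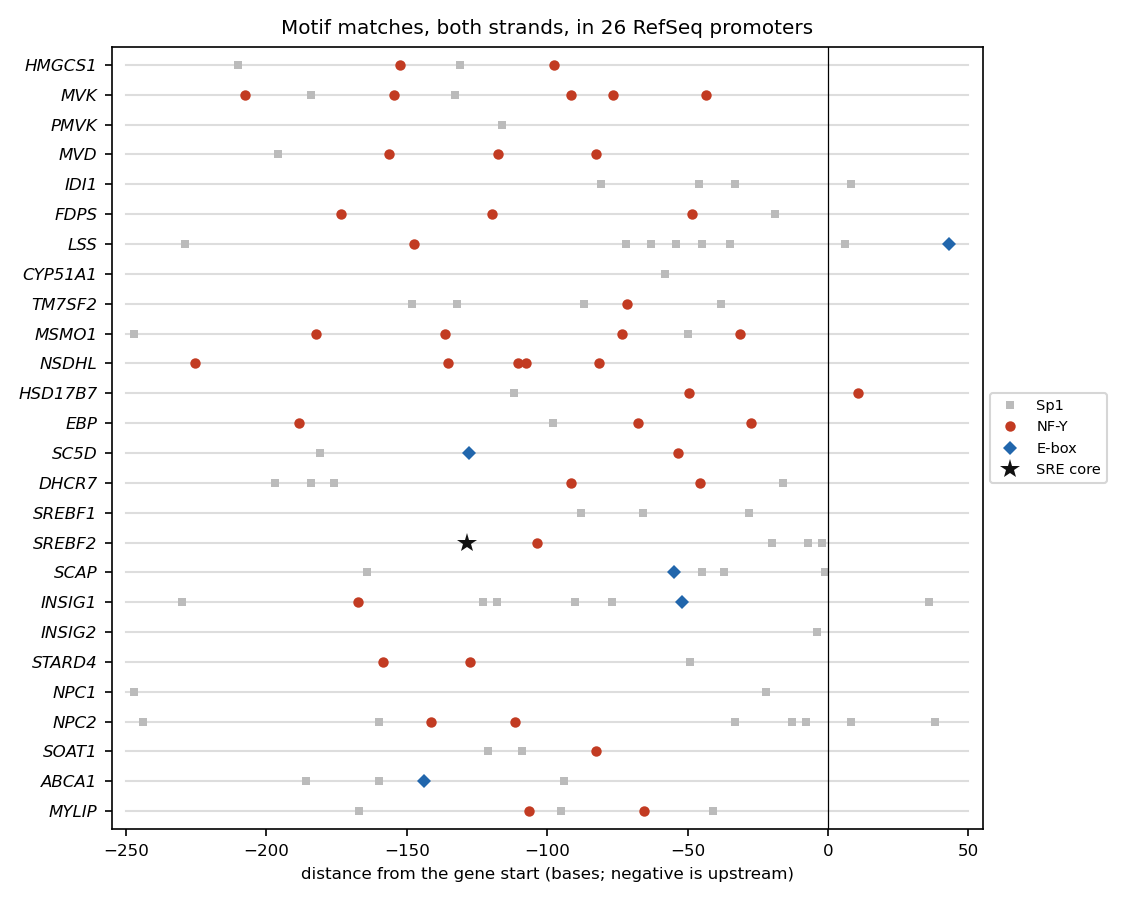
Matches of the motifs for Sp1 (grey squares), NF-Y (red circles), the E-box (blue diamonds) and the sterol response element core (star) in 26 RefSeq promoter windows, one gene per line, against the distance from the gene start in bases. CCAAT matches lie upstream of the start in 18 genes, HSD17B7 has a further one downstream of it, and PMVK, IDI1, CYP51A1 and SREBF1 are among the 8 genes without any.

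Levels in shLuc were compared between genes as normalized reads per kb of annotated exon (GENCODE release 29), here as mean ± SD of 2 libraries. Squalene synthase FDFT1 was highest at 4113 ± 113, followed by the farnesyl diphosphate synthase FDPS at 2861 ± 0.783. HMGCS1 (2420.2 ± 102), the isomerase IDI1 (2277 ± 405) and MSMO1 (2127 ± 16.2) came next, and the libraries of HMGCS1 and IDI1, and of IDI1 and MSMO1, overlapped. The lowest synthesis enzyme was HSD17B7 at 151 ± 21.3, 27.2-fold below FDFT1. In the whole order, libraries overlapped in 10 of the 29 pairs of neighbours.

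Efflux genes were at the bottom of that order. MYLIP stood at 94.5 ± 12.0 reads per kb, ABCG1 at 5.80 ± 0.0895 and ABCA1 at 0.976 ± 0.146, the 26th, 29th and 30th of the 30 genes. The intervening ranks were held by INSIG2 (74.8 ± 8.52) and the lysosomal transporter NPC1 (52.5 ± 5.10). HMGCS1 went from rank 3 in shLuc to rank 11 in shIMPA1 and rank 5 in shIMPDH2, whereas PMVK went from rank 8 to rank 1 and rank 4. PMVK itself was called in neither knockdown. Its rank 1 is not resolved, since PMVK (1898 ± 16.0) and FDFT1 (1882 ± 184) overlapped in shIMPA1.

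**Figure D2:**
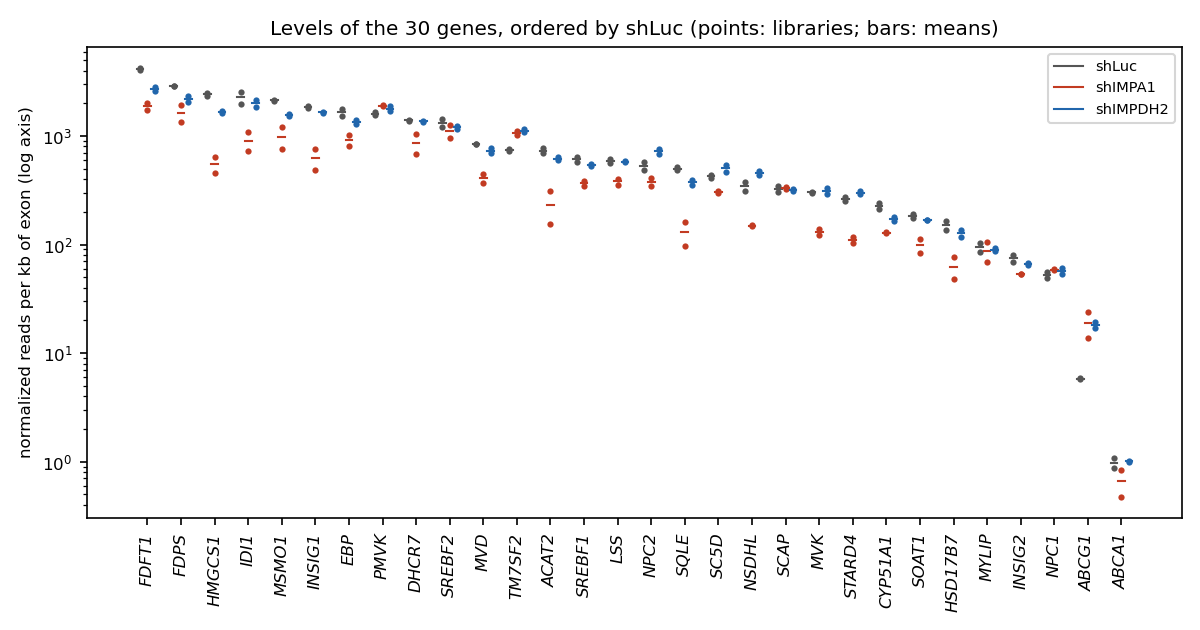
Normalized reads per kb of exon (log axis) for the 30 genes in the order of their shLuc mean, with a point for each library and a bar for each group mean. Synthesis enzymes span 27.2-fold in shLuc from FDFT1 to HSD17B7, ABCG1 and ABCA1 lie below all other members in every group, and the shIMPA1 points (red) lie below the shLuc points (grey) for 23 of the 30 genes.

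Synthesis enzymes were lower in shIMPA1 than in shLuc. Of the 30 genes, 24 were called, 22 lower and 2 higher, where limma called 30.2% of all tested genes. Of the 18, 16 fell, 1 rose (TM7SF2) and 1 was not called (PMVK), where limma called 16.2% of all 17742 tested genes lower and 14.0% higher at an adjusted p under 0.05. The median log2 change of the 18 was -1.10, against 0.02 over all genes tested. Over 2-fold falls were called for 10 of the 18 and for 6.92% of all genes. Both shIMPA1 libraries lay below both shLuc libraries for 23 of the 30 members and above them for 4, where the shares over all genes were 32.7% and 33.7%. Summed over the 18 enzymes, normalized counts came to 93559 and 94323 in shLuc and to 52481 and 41480.2 in shIMPA1, the latter 55.9% and 44.2% of the shLuc mean. In bulk RNA, fewer cells expressing a gene and less of its RNA per cell cannot be told apart.

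In the mevalonate arm, HMGCS1, the cytosolic synthase that condenses acetyl-CoA with acetoacetyl-CoA (ENSG00000112972, chr5:43289395-43313512, GRCh38), stood at 11042 and 11718 normalized counts in shLuc and at 3042 and 2149 in shIMPA1. Both shIMPA1 libraries lay far below both controls. The gene fell 4.45-fold, a log2 change of -2.15 ± 0.16 (SE; limma adjusted p = 6.9e-06), the largest fall among the 30. ACAT2, the thiolase that makes acetoacetyl-CoA, stood at 2968 and 3316 in shLuc and at 1338 and 668 in shIMPA1. Its groups did not overlap, but the shIMPA1 libraries differed 2-fold, and the log2 change of -1.73 ± 0.24 (limma adjusted p = 0.000529) was -2.23 without library 1 and -1.23 without library 2 of shIMPA1.

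Mevalonate kinase MVK, which phosphorylates mevalonate first, stood at 1949 and 1963 in shLuc and at 903 and 799 in shIMPA1. Its libraries agreed closely within both groups, and it fell by 1.20 ± 0.12 on the log2 scale (limma adjusted p = 6.9e-05). The decarboxylase MVD, which forms isopentenyl diphosphate, went from 4017 and 3968 to 2096 and 1737 (log2 change -1.06 ± 0.13, limma adjusted p = 0.000199). IDI1, which converts isopentenyl into dimethylallyl diphosphate, went from 11136 and 8650.0 to 4705 and 3175 (log2 change -1.34 ± 0.19, limma adjusted p = 0.000534). For both genes every shIMPA1 library lay below every shLuc library. FDPS, which builds farnesyl diphosphate at the branch point to other isoprenoids, went from 10639.6 and 10636 to 7221 and 4967 and fell by 0.83 ± 0.17 (limma adjusted p = 0.00421).

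PMVK, the kinase between MVK and MVD, was the mevalonate arm gene that was not called. It stood at 1985 and 2113 in shLuc and at 2415 and 2444 in shIMPA1. Both shIMPA1 libraries were above both controls, but the log2 difference of 0.25 ± 0.12 did not pass the test (limma adjusted p = 0.131).

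In the squalene and sterol arm, 10 of 11 enzymes fell and the median log2 change was -0.85. Squalene epoxidase SQLE, which adds the oxygen that becomes the sterol hydroxyl, stood at 2077 and 2224 in shLuc and at 699 and 413 in shIMPA1. The groups were far apart and the gene fell 3.99-fold, a log2 change of -2.00 ± 0.20 (limma adjusted p = 5.9e-05). FDFT1, which joins farnesyl units into squalene, went from 20981 and 21813 to 10466 and 9110.2 (log2 change -1.13 ± 0.14, limma adjusted p = 0.000191). Being the most abundant member, FDFT1 lost more normalized counts than any other. Lanosterol synthase LSS, which closes the rings, stood at 4113 and 4486 against 2936 and 2576 and fell by 0.64 ± 0.12 (limma adjusted p = 0.00275).

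The enzymes that trim lanosterol to cholesterol followed with unequal sizes. NSDHL, the dehydrogenase of the demethylation complex (ENSG00000147383, chrX:152830967-152869729), stood at 623 and 759 in shLuc and at 299 and 293 in shIMPA1. The shIMPA1 libraries were nearly equal, and the log2 change was -1.21 ± 0.14 (limma adjusted p = 0.000146). Its partners in that complex are the oxidase MSMO1 and the reductase HSD17B7. MSMO1 went from 6119 and 6185 to 3497 and 2208 (log2 change -1.15 ± 0.18, limma adjusted p = 0.00100). HSD17B7 went from 651 and 795 to 366 and 228 (log2 change -1.31 ± 0.21, limma adjusted p = 0.00102). All 3 members of the complex thus fell more than 2-fold, with no overlap between groups. Without shIMPA1 library 2 the log2 changes of MSMO1 (-0.81) and HSD17B7 (-0.97) were under 2-fold. NSDHL stayed over 2-fold whichever library was left out (-1.07 or lower).

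CYP51A1, the lanosterol demethylase, stood at 765 and 865 in shLuc and at 470.3 and 453 in shIMPA1 (log2 change -0.82 ± 0.13, limma adjusted p = 0.00108). The isomerase EBP went from 3685 and 4251 to 2467 and 1946 (log2 change -0.85 ± 0.14, limma adjusted p = 0.00136). Both genes kept their groups apart. DHCR7, which makes cholesterol from 7-dehydrocholesterol, stood at 5881 and 5726 in shLuc and at 4318 and 2841 in shIMPA1. Its log2 change of -0.73 ± 0.17 (limma adjusted p = 0.00888) was -0.43 without library 2 of shIMPA1, and its call was lost without either shLuc library (adjusted p = 0.0788 and 0.0686). SC5D, the desaturase before it, stood at 2436 and 2283 against 1739 and 1675 (log2 change -0.47 ± 0.12, limma adjusted p = 0.0153), a call also lost without either shLuc library (adjusted p = 0.122 and 0.0719).

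TM7SF2, a reductase that acts after CYP51A1, was the 1 enzyme that rose. It stood at 2491 and 2574 in shLuc and at 3505 and 3797 in shIMPA1, with no overlap. The log2 change was 0.53 ± 0.11 (limma adjusted p = 0.00602), and the call was lost without shLuc library 1 (adjusted p = 0.0607). LBR, which carries the same reductase activity and is not one of the 30, fell by 0.58 ± 0.18 (limma adjusted p = 0.0299), a call lost in 5 of the 6 fits that left out 1 library.

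**Figure D3:**
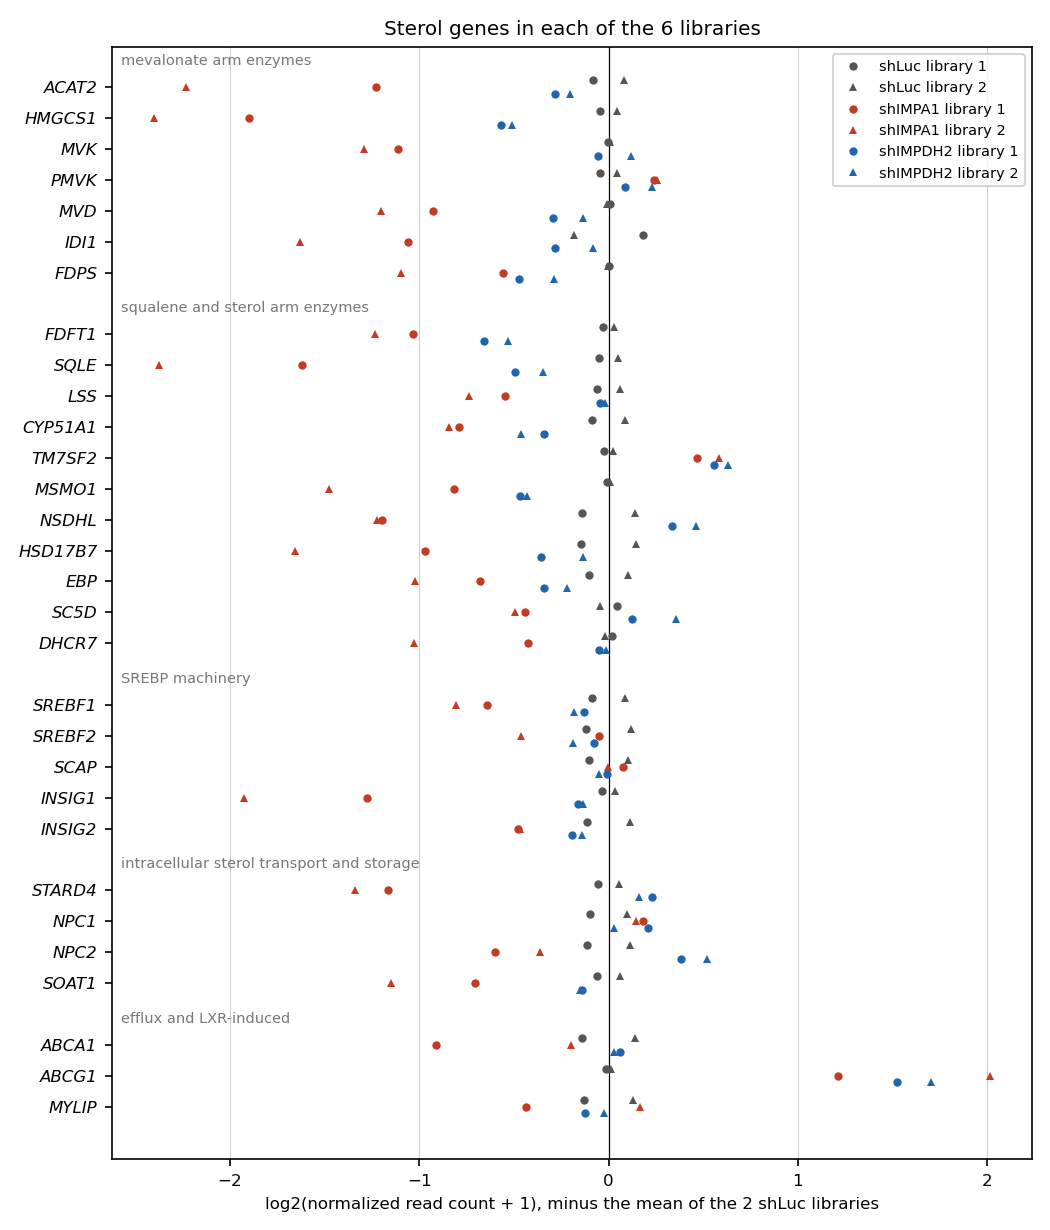
Log2(normalized count + 1) of each of the 30 genes in each of the 6 libraries, minus the mean of the 2 shLuc libraries, by role (circles: library 1; triangles: library 2). Most red points (shIMPA1) lie left of the grey points (shLuc), PMVK, TM7SF2, NPC1 and ABCG1 lie right of them, and the blue points (shIMPDH2) lie between or near the grey points for most enzymes.

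SREBP machinery moved unevenly in shIMPA1: 3 of 5 genes fell and 2 were not called, where limma called 16.2% of all tested genes lower. INSIG1, the retention protein that is itself an SREBP target, stood at 6559 and 6869 in shLuc and at 2771 and 1767 in shIMPA1. It fell 3.03-fold without overlap (log2 change -1.60 ± 0.18, limma adjusted p = 0.000118). INSIG2, its less abundant relative, went from 272 and 319 to 211 and 213 (log2 change -0.47 ± 0.15, limma adjusted p = 0.0366). That call was lost in 4 of the 6 fits without 1 library, those without a shLuc or a shIMPDH2 library (highest adjusted p = 0.262). SREBF1, the gene of the SREBP that mainly serves fatty acid synthesis, went from 4580.4 and 5169 to 3115 and 2779.9 (log2 change -0.73 ± 0.12, limma adjusted p = 0.00154).

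SREBF2 itself stood at 9158 and 10793 in shLuc and at 9596 and 7215 in shIMPA1. The groups overlapped, and the log2 difference was -0.26 ± 0.16 (limma adjusted p = 0.245). It was -0.46 without shIMPA1 library 1 and -0.05 without shIMPA1 library 2. SCAP, the escort protein, stood at 1941 and 2234 against 2193 and 2081. Its groups overlapped too, with a log2 difference of 0.04 ± 0.12 (limma adjusted p = 0.845).

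Of the genes of intracellular sterol handling, 3 of 4 fell in shIMPA1, where limma called 16.2% of all tested genes lower. STARD4, which carries sterol between membranes through the cytosol, stood at 1438 and 1551 in shLuc and at 666 and 589 in shIMPA1. It fell 2.38-fold (log2 change -1.25 ± 0.12, limma adjusted p = 4.8e-05), with tight libraries in both groups. SOAT1, which esterifies cholesterol for storage in droplets, went from 1241 and 1348 to 793 and 583 (log2 change -0.93 ± 0.15, limma adjusted p = 0.00118). NPC1 and NPC2 hand cholesterol from endocytosed lipoproteins out of the lysosome. NPC2 went from 1344 and 1572 to 957 and 1132 (log2 change -0.48 ± 0.13, limma adjusted p = 0.0206), a call lost without either shLuc library (adjusted p = 0.0533 and 0.183). NPC1 stood at 494 and 567 against 600.4 and 585, a log2 difference of 0.16 ± 0.14 that did not pass (limma adjusted p = 0.394).

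In shIMPA1, 1 of 3 efflux genes rose and 2 were not called, a share close to the 30.2% that limma called of all tested genes. ABCG1, which exports cholesterol to lipoprotein particles (ENSG00000160179, chr21:42199689-42297244), stood at 35.1 and 35.9 normalized counts in shLuc and at 83.5 and 147 in shIMPA1. Both shIMPA1 libraries were above both controls but differed from each other, and the gene rose 3.06-fold (log2 change 1.61 ± 0.27, limma adjusted p = 0.00135). It rested on few reads in shLuc, 39 and 41. ABCA1, the exporter to lipid-poor apolipoprotein, was at the limit of what this depth can show, with 9.90 and 12.3 in shLuc and 5.39 and 9.49 in shIMPA1. The log2 difference of -0.55 ± 0.45 was not detectable against that error (limma adjusted p = 0.382). MYLIP stood at 261 and 312 against 211 and 321, overlapping (log2 difference -0.13 ± 0.20, limma adjusted p = 0.648). The log2 difference of MYLIP was -0.44 without shIMPA1 library 2 and 0.17 without shIMPA1 library 1.

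Set side by side in shIMPA1, 16 of 18 synthesis enzymes fell with a median log2 change of -1.10. Of the 3 efflux and LXR-induced genes 0 fell and 1 rose, with a median of -0.13. Over all tested genes, limma called 16.2% lower and 14.0% higher. Summed counts of these 3 genes, mostly MYLIP, which is no exporter, were 306 and 361 in shLuc and 299.8 and 477 in shIMPA1, which overlap. Of the exporters, ABCG1 lay above shLuc in both shIMPA1 libraries. ABCA1 lay below it in both, at 6 and 11 reads. A list of 3 genes allows no comparison beyond these values.

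Genes outside the pathway, from a list chosen with earlier results of these data known, also fell in shIMPA1. All 12 replication and mitosis genes looked at fell, where limma called 16.2% of all tested genes lower. Their median log2 change was -1.48, and their summed counts were 53.9% and 36.2% of the shLuc mean in libraries 1 and 2. Library 2 of shIMPA1 was the lower one for 16 of the 18 synthesis enzymes (median log2 gap -0.31) and for 11 of the 12 replication and mitosis genes (median -0.66). Their part in the result was not tested. Without shIMPA1 library 1 the median of the 18 enzymes was -1.21 and without library 2 it was -0.87.

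In shIMPDH2, 5 of the 30 genes were called against shLuc, 2 lower and 3 higher, a share close to the 17.0% that limma called of all tested genes. In the fits that left out 1 library, the median log2 change of the 30 lay between -0.19 (without shLuc library 1) and -0.05 (without shLuc library 2). Of the 18 synthesis enzymes, 2 fell (HMGCS1 and FDFT1), 1 rose (TM7SF2) and 15 were not called, where limma called 9.15% of all tested genes lower and 7.86% higher. The median log2 change of the 18 was -0.23, against -0.01 over all genes tested. Both shIMPDH2 libraries lay below both shLuc libraries for 9 of the 18 and above them for 4, where the shares over all genes were 33.4% and 32.7%. Summed counts of the 18 came to 74139 and 80443, or 78.9% and 85.6% of the shLuc mean.

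HMGCS1 stood at 7683 and 7983 in shIMPDH2, below 11042 and 11718 in shLuc (log2 change -0.54 ± 0.16, limma adjusted p = 0.0388). FDFT1 stood at 13568 and 14799.9, below 20981 and 21813 (log2 change -0.59 ± 0.14, limma adjusted p = 0.0133). TM7SF2 stood at 3721 and 3922, above 2491 and 2574 (log2 change 0.59 ± 0.11, limma adjusted p = 0.00562). In each of these 3 genes the libraries did not overlap, yet each call was lost when any 1 of the shLuc or shIMPDH2 libraries was left out, with adjusted p-values up to 0.214, 0.134 and 0.0921. Without either shIMPA1 library, which enter the fit through the shared spread, 7 enzymes were called lower (FDPS, SQLE, CYP51A1, MSMO1 and EBP beside HMGCS1 and FDFT1) and 2 higher (NSDHL beside TM7SF2). In those fits 36.2% of all genes were called.

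Of the enzymes that fell over 2-fold in shIMPA1, HMGCS1 and FDFT1 were the ones also called lower in shIMPDH2. ACAT2 stood at 2577 and 2723 there (log2 difference -0.24 ± 0.24, limma adjusted p = 0.529) and SQLE at 1527 and 1693 (-0.42 ± 0.20, adjusted p = 0.176). MVK, at 1881 and 2127, overlapped with shLuc (0.03 ± 0.12, limma adjusted p = 0.884). NSDHL lay above the controls, with 869 and 946 normalized counts above 623 and 759 in shLuc, but its log2 difference of 0.40 ± 0.14 did not pass (limma adjusted p = 0.0734). The 11 remaining enzymes, with log2 differences between -0.45 (MSMO1) and 0.24 (SC5D), did not pass either.

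None of the 5 genes of the SREBP machinery was called in shIMPDH2, where limma called 17.0% of all tested genes. Their log2 differences lay between -0.17 (INSIG2) and -0.03 (SCAP). INSIG1, which fell in shIMPA1, stood at 5992 and 6107 (log2 difference -0.15 ± 0.18, limma adjusted p = 0.602). Of the transport and storage genes, NPC2 rose, from 1344 and 1572 in shLuc to 1893 and 2083 (log2 change 0.45 ± 0.13, limma adjusted p = 0.0422). That call was lost without any 1 of the shLuc or shIMPDH2 libraries (highest adjusted p = 0.304). STARD4, at 1750.1 and 1670.2, lay above both controls without passing (0.20 ± 0.12, limma adjusted p = 0.302), and NPC1 and SOAT1 were not called.

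ABCG1 was the member with the largest change in shIMPDH2. It stood at 104 and 118 normalized counts against 35.1 and 35.9 in shLuc, a 3.06-fold rise (log2 change 1.62 ± 0.27, limma adjusted p = 0.00230). It was also the 1 member whose call held in all 6 fits without 1 library (highest adjusted p = 0.0469). ABCA1, at 11.6 and 11.2, and MYLIP, at 262 and 281, overlapped with their controls (log2 differences 0.04 ± 0.45 and -0.07 ± 0.20, limma adjusted p = 0.957 and 0.836). Both knockdowns were compared with the same shLuc libraries, so the values of ABCG1 and TM7SF2 in them are not independent of each other. Over all genes tested, 3.67% were called higher in both.

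**Figure D4:**
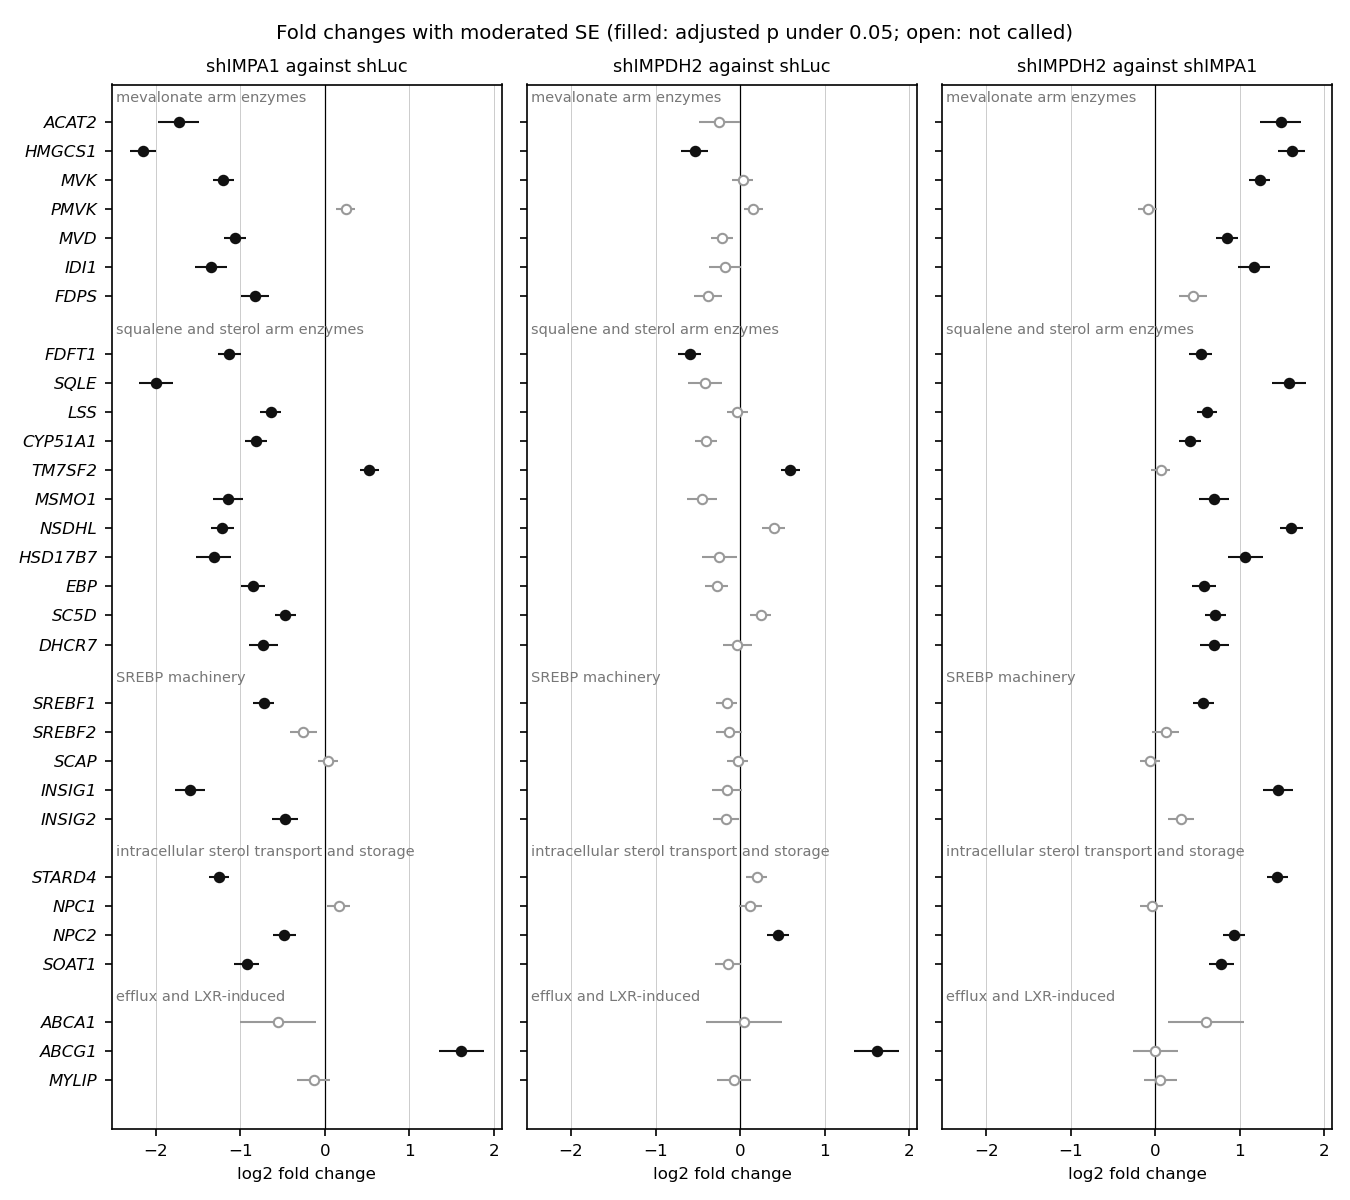
Log2 fold changes of the 30 genes with their moderated SE in the 3 comparisons, by role; filled points passed an adjusted p under 0.05 in limma and open points did not. In shIMPA1 16 of 18 enzymes lie left of 0 and are filled, in shIMPDH2 most points are open, and ABCG1 lies at 1.61 and 1.62 in the comparisons with shLuc and at 0.00 between the knockdowns.

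Compared directly, shIMPDH2 had more synthesis enzyme RNA than shIMPA1. Of the 30 genes, 20 were called, where limma called 26.1% of all tested genes. Of the 18 enzymes, 15 were higher in shIMPDH2, 0 were lower and 3 were not called (PMVK, FDPS and TM7SF2), where limma called 13.5% of all tested genes higher and 12.6% lower. The median log2 difference was 0.70, against 0.00 over all genes tested. HMGCS1 differed by 1.61 ± 0.16 (limma adjusted p = 6.1e-05), NSDHL by 1.61 ± 0.14 (2.9e-05) and SQLE by 1.58 ± 0.20 (0.000308), each about 3-fold. ACAT2 (1.49 ± 0.24, limma adjusted p = 0.00151), MVK (1.23 ± 0.12, 6.9e-05) and IDI1 (1.16 ± 0.19, 0.00146) were over 2-fold higher, as was HSD17B7 (1.07 ± 0.21, 0.00396).

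INSIG1 (1.45 ± 0.18, limma adjusted p = 0.000260) and SREBF1 (0.57 ± 0.12, 0.00688) were higher in shIMPDH2 than in shIMPA1, and SREBF2, SCAP and INSIG2 were not called. In the transport group STARD4 (1.45 ± 0.12, limma adjusted p = 2.5e-05), NPC2 (0.93 ± 0.13, 0.000733) and SOAT1 (0.78 ± 0.15, 0.00373) were higher. None of the 3 efflux genes was called between the knockdowns, where limma called 26.1% of all tested genes. The log2 difference of ABCG1 was 0.00 ± 0.27 (limma adjusted p = 0.997). Of the 20 members called in this comparison, 10 were called in all 6 fits without 1 library: ACAT2, HMGCS1, MVK, MVD, IDI1, SQLE, NSDHL, INSIG1, STARD4 and NPC2. Without library 2 of shIMPA1 the log2 differences were 0.98 for ACAT2, 0.37 for MSMO1 and 0.40 for DHCR7, and without library 1 they were 1.99, 1.03 and 1.00. The summed counts of the 12 replication and mitosis genes were also higher in shIMPDH2, at 73.9% and 76.2% of the shLuc mean, and their part in the result was not tested.

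**Figure D5:**
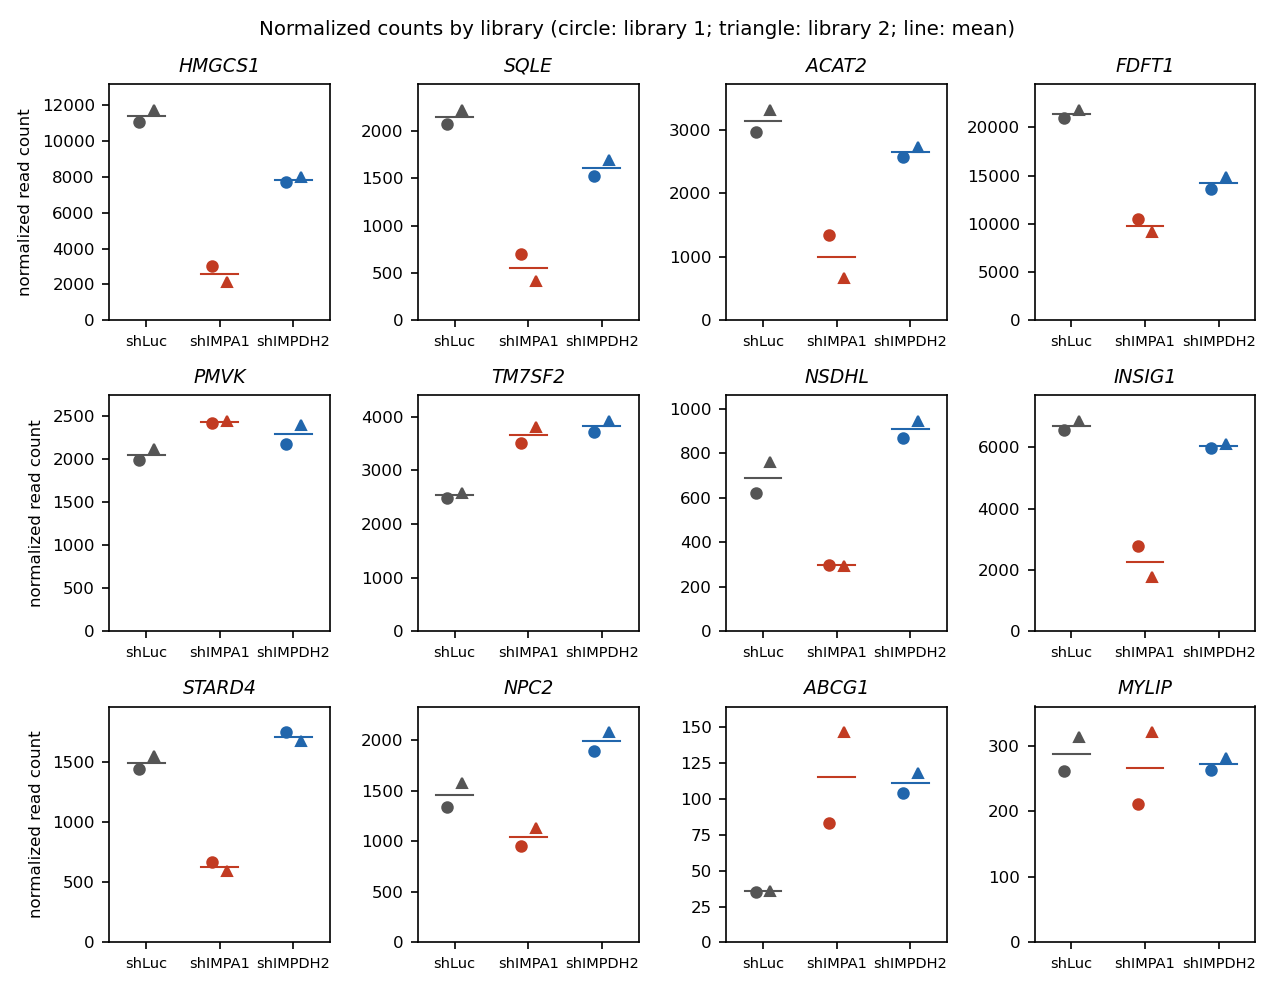
Normalized read counts in each library (circle: library 1; triangle: library 2; line: group mean) for 12 of the 30 genes, chosen after their values were seen, each on a linear axis from 0. Both shIMPA1 libraries are lowest for HMGCS1, SQLE, ACAT2, FDFT1, NSDHL, INSIG1, STARD4 and NPC2. HMGCS1, SQLE, ACAT2, FDFT1 and INSIG1 lie below shLuc in both knockdowns, and PMVK, TM7SF2 and ABCG1 lie above it in both. NPC2 lies below shLuc in shIMPA1 and above it in shIMPDH2.

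For related pathway genes outside the 30, the shares called over all tested genes, higher and lower, were 14.0% and 16.2% in shIMPA1 and 7.86% and 9.15% in shIMPDH2. The counts of each list stand against these shares. Of 10 genes of the isoprenoid branch, which draws on farnesyl diphosphate for prenylation, dolichol and ubiquinone, 1 rose in shIMPA1 and 0 fell, namely RABGGTA, a prenyltransferase subunit (log2 change 0.58 ± 0.13, limma adjusted p = 0.00575). FNTA (0.29, adjusted p = 0.0840) and PDSS1 (-0.38, adjusted p = 0.105) were not called. In shIMPDH2, GGPS1, the geranylgeranyl diphosphate synthase (0.60 ± 0.12, limma adjusted p = 0.00550), and RABGGTA (0.63 ± 0.13, adjusted p = 0.00664) rose, and DHDDS (0.36, adjusted p = 0.0651) was not called.

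Of 10 genes of SREBP proteolysis and sterol-regulated degradation, 5 rose and 0 fell in shIMPA1 (14.0% higher over all genes), and 3 rose and 0 fell in shIMPDH2 (7.86% higher over all genes). The protease MBTPS2, which makes the second cut in SREBP, rose by 0.53 ± 0.12 in shIMPA1 (limma adjusted p = 0.00608) and by 0.56 ± 0.12 in shIMPDH2 (0.00809). ERLIN1, an endoplasmic reticulum membrane protein, rose by 0.40 ± 0.11 in shIMPA1 (limma adjusted p = 0.0213). TRIM3 (1.33 ± 0.12, limma adjusted p = 5.2e-05) and RNF139 (0.40 ± 0.12, 0.0494) rose in shIMPDH2. The RNF139 call was lost in 4 of the 6 fits without 1 library (those without a shLuc or shIMPDH2 library), with DESeq2 (adjusted p = 0.0573), without the trend (0.129) and with a replicate block (0.0655).

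Among 5 tested LXR genes and targets beyond the 30, 0 rose and 2 fell in shIMPA1 (16.2% lower over all genes): SMPDL3A (-0.87 ± 0.14, limma adjusted p = 0.000980) and NR1H3, the gene of LXR alpha (-0.50 ± 0.13, 0.0149). LPCAT3, a phospholipid-remodelling LXR target, stood at 0.40 there (limma adjusted p = 0.0715) and rose in shIMPDH2 by 0.60 ± 0.15 (0.0224), where 1 of 5 rose (7.86% over all genes) and 0 fell. NR1H2 (-0.14) and NR1H3 (0.13) were not called in shIMPDH2. Of the 3 members grouped as efflux and LXR-induced, ABCG1 was called higher in both knockdowns (3.06-fold in each, limma adjusted p = 0.00135 and 0.00230). ABCA1 and MYLIP were called in neither.

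Of 14 further genes of sterol transport, uptake and storage, 3 rose and 5 fell in shIMPA1, where 30.2% of all genes were called. In shIMPDH2, 1 rose and 2 fell, close to the 17.0% called over all genes. The oxysterol-binding protein gene OSBPL5 rose by 1.07 ± 0.11 (limma adjusted p = 9.1e-05) and 1.04 ± 0.11 (0.000190). CAV1, the caveolar coat protein, changed by -2.60 ± 0.29 (limma adjusted p = 0.000130) and -1.62 ± 0.29 (0.00388). TMEM97, an SREBP target that binds NPC1, changed by -1.34 ± 0.21 in shIMPA1 (limma adjusted p = 0.00102), and NCEH1, a cholesteryl ester hydrolase, by -0.70 ± 0.16 in shIMPDH2 (0.0139). Of 6 further sterol enzymes, 1 rose and 2 fell in each knockdown: CYP46A1, a cholesterol hydroxylase (1.52 ± 0.42 and 1.69 ± 0.42, limma adjusted p = 0.0198 and 0.0194), FAXDC2 (-0.71 ± 0.19 and -0.91 ± 0.19, 0.0165 and 0.00805) and LBR (-0.58 ± 0.18 and -0.63 ± 0.18, 0.0299 and 0.0326). Of the genes named outside the 30, the calls of SMPDL3A, OSBPL5, CAV1 and TMEM97 in shIMPA1 and of TRIM3 and OSBPL5 in shIMPDH2 held in all 6 fits that left out 1 library, and every other such call was lost in at least 1.

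Exons of several members overlap those of other genes in GENCODE, and the use of strand in counting is not stated. ACAT2 shares 9.23% of its exon bases with TCP1 on the opposite strand, MVK 4.72% with MMAB, FDPS 18.6% with RUSC1-AS1, NPC1 5.98% with RMC1, NPC2 3.75% with ISCA2 and SREBF1 6.92% with RAI1. The largest overlap is that of CYP51A1, with 79.4% of its exon bases also in the gene model AC000120.2 on the same strand, so its level is uncertain. ACAT2 shares a further 26.5% and 33.9% with a pair of opposite-strand genes that were not analysed here. TM7SF2 shares 16 bases with VPS51 on the same strand. HSD17B7 has a near-identical pseudogene, so its level is uncertain. Reads from such stretches cannot be told apart.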

How the data were processed

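Poly(A) RNA of 6 libraries in 3 groups was sequenced. The submitters' processing notes name Trimmomatic 0.36, STAR 2.5.2b with GRCh38, and featureCounts of Subread 1.5.2; per the labels' protocols, only uniquely placed reads in exons counted. The deposited signal values are read counts that the authors scaled by a factor for each library: undoing that scale gave whole reads (tolerance 0.05) for 99.98% to 100% of genes. The log2 fold changes and p-values of the authors' deposited table belong to a comparison its header does not name and entered no test. Symbols came from a gene name table for 17644 of 17811 identifiers and from GENCODE release 29 for 106, and 61 had none. Genes at 10 or more in 2 or more libraries (17742) were tested on log2(value + 1), which understates changes of low genes, with limma 3.58.1 (R 4.3.3), a mean-variance trend, 1 fit over all 6 libraries and 3 residual degrees of freedom. Benjamini-Hochberg adjusted p under 0.05 over all tested genes was a call. SE is limma's moderated standard error, and fold changes come from the same scale. The test was checked on simulated data. Alternatives were edgeR 4.0.16 and DESeq2 1.42.0 on the recovered reads, TMM scaling, pseudocounts of 0.5 and 5, no filter, no trend, only the groups compared, a replicate block and leaving out each library. The members and all lists were chosen with earlier results of these data known. All 30 members were named, and of each further list up to 3 genes with the smallest adjusted p per comparison with shLuc. A gene that met this rule is not reported here. Promoters were to be printed for genes with TCACNCCAC and for the efflux genes; the others printed were added after values were seen. Library numbers did not pair the groups: deviations of same-numbered libraries correlated at 0.0418, -0.0488 and 3e-04 across genes.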

Additional observations from a re-analysis of the deposited data

Results flagged for a closer look

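NPC2, the lysosomal cholesterol-binding protein, was called in opposite directions in the knockdowns: it stood at 1344 and 1572 normalized counts in shLuc, at 957 and 1132 in shIMPA1 and at 1893 and 2083 in shIMPDH2. The difference between the knockdowns, tested directly, was 0.93 ± 0.13 on the log2 scale (limma adjusted p = 0.000733), and it was called in all 6 fits that left out 1 library (0.81 to 1.05). Both calls against shLuc were lost when either shLuc library was left out, and the call in shIMPDH2 also when either shIMPDH2 library was.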

How the results depend on the processing

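No member changed direction while called under any of the alternatives run. Against shLuc, 20 of 24 member calls in shIMPA1 and 2 of 5 in shIMPDH2 held in all 9 other settings, and 16 of 20 held between the knockdowns; in all 6 fits without 1 library, 19, 1 and 10 held. Without the mean-variance trend, 3508 genes were called in shIMPA1, 1727 in shIMPDH2 and 2909 between the knockdowns (5361, 3018 and 4627 in the reported fit), and 0 synthesis enzymes were called lower in shIMPDH2. Fitting only shIMPDH2 and shLuc called 6382 genes, with 7 synthesis enzymes lower and 2 higher. Leaving out 1 library at a time called 2147 to 7940 genes in shIMPA1, with 0 to 1 synthesis enzymes higher and 1 to 2 efflux genes called, MYLIP being the second without shIMPA1 library 2. In shIMPDH2 it called 773 to 6386 genes, with 0 to 7 synthesis enzymes lower and 0 to 2 higher, and between the knockdowns 1430 to 7052 genes, with 7 to 16 enzymes higher (7 without shIMPDH2 library 2). Where 1 library of a group remains, it is assumed to vary like the other groups; the cause of these shifts was not tested. With a replicate block, 5298, 2939 and 4537 genes were called, and CYP51A1 between the knockdowns was the 1 member to lose its call (adjusted p = 0.0518). ABCA1 did not pass the filter when only shIMPA1 and shLuc were fitted. With 10 to 14 reads of ABCA1 per library in shLuc and shIMPDH2, depth limits what can be said of it. Groups of 2 libraries limit all comparisons.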
